A study of Mus musculus with 6 samples.

Results

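The genes Slc25a2, Taf7, 3222401L13Rik, Gm26672 and BC037039, which are not protocadherins, lie inside the clustered protocadherin region of mouse chromosome 18 and were followed here after loss of Mphosph8. They were taken from a fixed list of GENCODE symbols within chromosome 18, 36930184 to 37841873 (GRCm38), and all 5 were among the 54532 gene identifiers of the count files. RNA of whole brains at postnatal day 14 was sequenced in 3 control brains, with the genotype Mphosph8fl/+ Nestin-Cre+, and 3 Mphosph8 mutant brains, with the genotype Mphosph8fl/fl Nestin-Cre+ (labelled Mphosph8∆n), all on a C57BL/6J background. Nestin-Cre is active in neural progenitors and their descendants, so cells of other origin in a whole brain keep the gene, and the transgene was present in both groups. The labels give the controls 1 floxed allele, whereas the study's text describes them by Nestin-Cre alone. The control titles also carry the mark HET. By these genotypes the comparison is of homozygous against heterozygous deletion of Mphosph8 in neural cells, not against an intact gene. It asks how the genes that sit among the protocadherins behave when neural cells lose both copies of Mphosph8, which encodes MPP8, rather than a single copy.

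MPP8 is a subunit of the HUSH complex, which keeps chromatin marked by trimethylated histone H3 lysine 9 silent and acts on long transcribed stretches that lack introns. The clustered protocadherins are cell adhesion molecules whose combinations give neurons a surface identity, and most of their variable parts are encoded by single large exons. Taf7 and Slc25a2 lie in the interval between the beta and gamma arrays, as their human counterparts do. The product of Taf7 is a subunit of TFIID, the factor that recognises core promoters for RNA polymerase II. Slc25a2 encodes a mitochondrial ornithine carrier, a paralogue of Slc25a15. The other 3 genes are noncoding RNAs, and no role is stated for them here.

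The libraries held between 12956880 and 15223424 counts. Every pair of libraries within a genotype differed beyond counting error (chi-square over degrees of freedom 3.67 to 13.6), so no library was a copy of another. The labels do not say more of how replicates were obtained than that they are separate samples. The study describes them as brains of littermates and as biological replicates. The edgeR p-values set the difference between genotypes against the variation between samples, which is estimated with information shared across genes. Mphosph8, in CPM (counts scaled to the effective library size), averaged 58.4 ± 11.3 over the controls and 28.9 ± 3.63 over the mutants (SD, n = 3). Its log2 fold change was -1.02 ± 0.12 (SE, edgeR adjusted p 0.000157), and no mutant library reached the lowest control. The study's deletion removes exon 4, whereas the counts cover the whole gene, so any remaining transcripts without that exon would also be counted. Control replicate 3 held 3641 counts of 4 Y-linked genes and 27 of Xist. The other 5 libraries held at most 1 count of the Y-linked genes and between 11130 and 17697 of Xist. By these genes control replicate 3 is the only male sample, whereas the study's methods describe littermates matched for sex. The fold changes of the 4 tested genes are given below with and without control replicate 3. Brain markers were present: all 8 neuronal, 7 astrocyte, 8 oligodendrocyte and 7 microglial markers were tested, and none was at 0. The summed oligodendrocyte markers lay between 21576 and 25839 CPM in control and between 17129 and 19850 CPM in mutant libraries, with a negative log2 fold change in 8 of 8 genes. The 5 choroid plexus markers summed to between 1438 and 1729 CPM in control and 1064 and 1267 CPM in mutant libraries. The part of these shifts in the results below was not tested.

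The genes fall into 2 places. Slc25a2 (ENSMUSG00000050304, minus strand, 37637377 to 37638745, 1 exon) begins 113 kb beyond Pcdhb22, the last beta gene, and Taf7 (ENSMUSG00000051316, minus strand, 37640491 to 37644204, 2 exons) lies 1745 bases further on. The coding sequence of Taf7 sits wholly in its last exon. The lincRNA 3222401L13Rik (ENSMUSG00000073590, 37655451 to 37661742) follows after another 11.2 kb, is the only one of the 5 on the plus strand like the protocadherins, and ends 50 bases before the first base of Pcdhga1. Gm26672 and BC037039 lie within the gamma array on the opposite strand. Gm26672 (ENSMUSG00000097330, 37746559 to 37768242, 4 annotated transcripts of up to 3 exons) has 5187 of its 6918 exonic bases opposite exons of Pcdhga10, Pcdhgb7, Pcdhga11 and Pcdhga12. BC037039 (ENSMUSG00000103309, 37805718 to 37807922, 1 exon) has 1559 of 2205 bases opposite Pcdhgc3.

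Counts of a gene that overlaps another depend on how strand was used, which the sources used here do not state. Of 453 genes whose exons lie wholly opposite other genes' exons, 27.6% reached 10 counts in the 6 libraries combined. The share was 33.6% of 42846 genes without exonic overlap and 0.27% of 741 genes wholly within exons on their own strand. Genes facing others were thus detected nearly as often as free-standing ones, unlike genes inside others on the same strand. None of the 5 genes shares exonic bases with a gene on its own strand. None of their 50-base words occurs, in the same orientation, in an annotated transcript of another gene. In the reverse orientation Gm26672 and BC037039 share sequence with the protocadherin exons they face.

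Of the 5 genes, 4 had enough counts to be tested and 2 were called higher in mutant brains, 3222401L13Rik and Gm26672, while 0 were called lower (edgeR quasi-likelihood test over 16731 genes, adjusted p under 0.05 and fold change over 2). Over all genes tested, 0.353% were called higher, 0.00598% lower and 0.359% in either direction. Without the fold limit the same 2 genes passed as higher, as did 0.532% of all genes tested. In 3 of the 4 all mutant libraries lay above all controls and in 0 below them, against 6.23% and 5.42% of all genes tested. Among the 56 tested clustered protocadherins, 21 (37.5%) were called higher and 0 lower, and the median log2 fold change was 0.72. By log2 fold change among the 60 tested genes of the region, 3222401L13Rik ranked 1, Gm26672 19, Taf7 39 and BC037039 56. Taf7 and BC037039 were not called, and Slc25a2 had too few counts to be tested. The called genes kept their calls in every alternative listed in the closing section. In whole-brain RNA, a change in the number of cells of a type and a change in RNA per cell cannot be told apart, which holds for every value here.

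**Figure D1:**
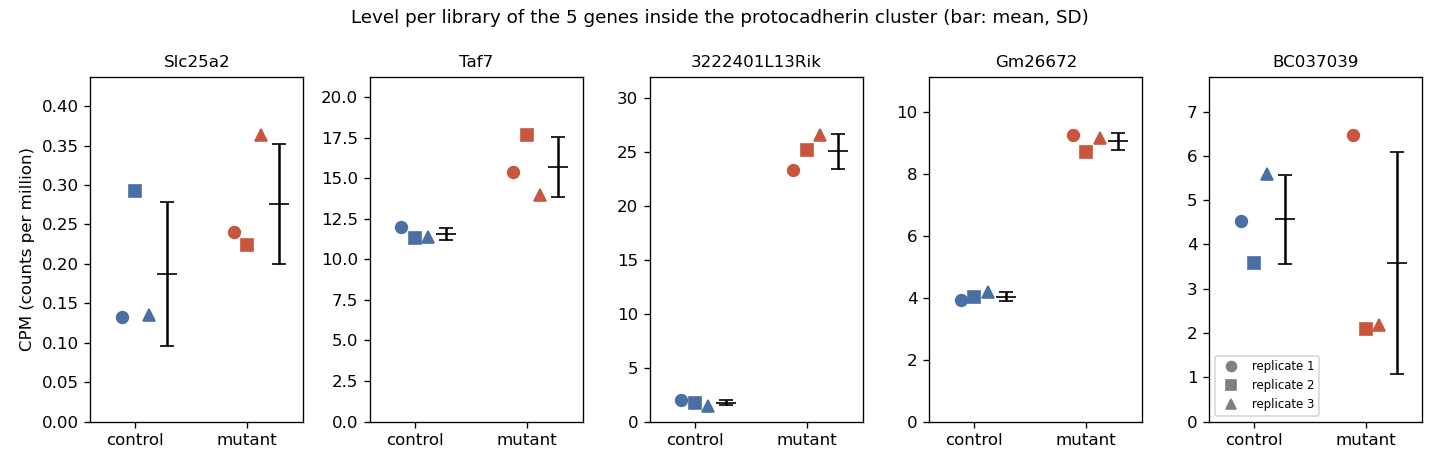
CPM of the 5 genes in each library (vertical axes start at 0 and differ between panels), with control libraries in blue, Mphosph8 mutant libraries in red, and the mean and SD of each group as a black bar (n = 3). Mutant libraries lie above all controls for Taf7, 3222401L13Rik and Gm26672, and on both sides of the controls for BC037039.

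The transcript 3222401L13Rik changed most. Its counts were 30, 24 and 22 in control replicates 1 to 3 and 292, 337 and 366 in mutant replicates 1 to 3. In CPM the controls stood at 1.99, 1.76 and 1.48 and the mutants at 23.3, 25.2 and 26.6. Every mutant library was thus more than an order of magnitude above every control, and the spread inside each group was small beside the gap. The edgeR log2 fold change of 3.84 ± 0.15 (SE) corresponds to a 14.3-fold rise (95% interval 11.4 to 17.8, not adjusted for the number of genes), with an edgeR adjusted p of 3.23e-11. Leaving out control replicate 3 gave 3.73 (edgeR adjusted p 1.73e-09). Among the 16731 genes it had the smallest p-value and the 7th largest log2 fold change.

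The change was large for a noncoding RNA. Among 1950 long noncoding RNAs tested it had the 2nd largest log2 fold change, and among the 788 of these with 1 exon the largest. Of the 788, 0.381% were called higher, close to the 0.353% of all genes. Its exon of 6292 bases was longer than those of 98.1% of the 788, whose median was 2377 bases. Of the 19 tested 1-exon long noncoding RNAs of at least 6000 bases it was the only 1 called. The median log2 fold change of the 19, which include 3222401L13Rik, was 0.43, against 0.20 for the 788 and -0.01 for all genes tested. The next largest of the 19 was 1.35. Its transcript has a GC content of 41.4%, near the median of 41.9% for 1-exon long noncoding RNAs.

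Beside it, on the same strand, stands Pcdhga1, the first gene of the gamma array. Pcdhga1 was at 3.46, 4.25 and 4.12 CPM in control and 12.8, 10.1 and 10.5 CPM in mutant libraries, with a log2 fold change of 1.5 ± 0.16 (SE, edgeR adjusted p 2.99e-05). On the other side Pcdhb22 was at 17.8, 18.3 and 17.5 CPM in control and 20.1, 20.3 and 17.7 CPM in mutant libraries, and was not past the threshold, at 0.12 ± 0.10 (edgeR adjusted p 0.935). Mutant replicate 1 held the lowest mutant level of 3222401L13Rik and the highest of Pcdhga1, so within the mutants the transcripts did not keep the same order.

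To set the transcript against its surroundings, its CPM was divided by the summed CPM of Pcdhb22 and Pcdhga1 in each library. It amounted to 9.38%, 7.79% and 6.85% of that sum in control replicates 1 to 3. In mutant replicates 1 to 3 it amounted to 70.9%, 82.8% and 94.1%. The log2 ratio rose by 3.37, without overlap between the groups (exact two-sided permutation p 0.1, the smallest that 3 against 3 libraries allow). Pcdhb22 made up most of the summed CPM, averaging 17.9 in controls and 19.4 in mutants, against 3.94 and 11.1 for Pcdhga1. Of all counts that fell on genes of the region, 3222401L13Rik took between 0.228% and 0.349% in control and between 2.27% and 3.06% in mutant libraries. The 5 genes together took 3.39% to 3.94% and 5.33% to 6.41%.

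**Figure D2:**
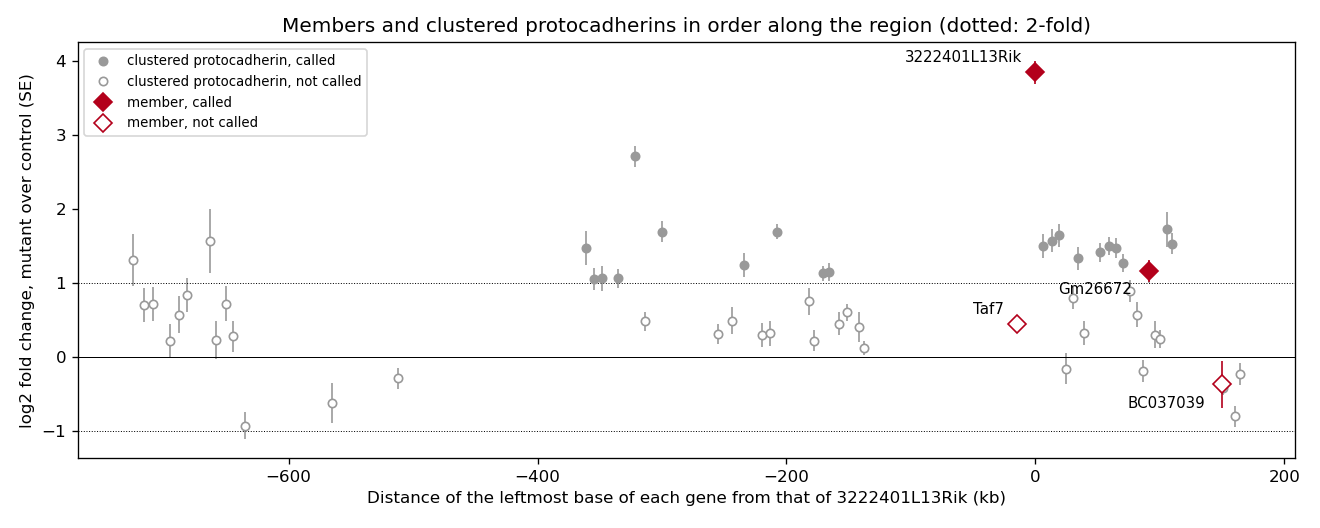
edgeR log2 fold change (vertical axis, mutant over control, bars SE) of the 4 tested genes (red diamonds) and the 56 tested clustered protocadherins (grey circles) against the distance of each gene's leftmost base from that of 3222401L13Rik in kb, with filled symbols for called genes and dotted lines at a 2-fold change. 3222401L13Rik stands highest at 3.84, Gm26672 at 1.16 lies among gamma genes of which some are called and some are not, Taf7 at 0.44 lies in the interval before them, and BC037039 at -0.37 lies beside the C-type genes at the right end.

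Gm26672, which runs against the gamma genes, more than doubled. Its counts were 59, 55 and 62 in control and 116, 117 and 126 in mutant replicates 1 to 3. The levels were 3.92, 4.03 and 4.18 CPM in controls and 9.28, 8.73 and 9.16 CPM in mutants. Replicates lay close together in both groups, and the groups did not overlap. The log2 fold change was 1.16 ± 0.15 (SE), a 2.24-fold rise (95% interval 1.79 to 2.79), with an edgeR adjusted p of 0.000332. Leaving out control replicate 3 gave 1.19 (edgeR adjusted p 0.00264).

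The 4 protocadherins that face its exons did not change alike. Pcdhga10, opposite 2613 bases of it, rose by 1.15 ± 0.15 on the log2 scale (SE, edgeR adjusted p 0.000341). Pcdhga12, opposite 422 bases, rose by 1.53 ± 0.14 (edgeR adjusted p 4.91e-06). Pcdhga11, opposite 1381 bases, and Pcdhgb7, opposite 771 bases, were at 0.24 ± 0.12 and 0.30 ± 0.18 and did not pass the threshold (edgeR adjusted p 0.792 and 0.882). The protocadherin that starts nearest to the right of its midpoint is Pcdhgb8, annotated as a polymorphic pseudogene, which rose by 1.72 ± 0.23 (edgeR adjusted p 0.000427).

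How far Gm26672 departed from its neighbours depended on which were taken. Against the summed CPM of the nearest protocadherins, Pcdhga11 and Pcdhgb8, its level was 21.0%, 19.2% and 18.3% in control and 27.6%, 34.5% and 33.2% in mutant libraries. The log2 ratio to that pair rose by 0.70, without overlap (exact two-sided permutation p 0.1, the smallest possible). Pcdhga11 made up most of that summed CPM, averaging 18.8 in controls and 22.2 in mutants, against 2.01 and 6.61 for Pcdhgb8. By itself Pcdhgb8 had a larger log2 fold change, at 1.72, than Gm26672, at 1.16. Against the 4 protocadherins on the opposite strand, a sum chosen after seeing the data, it was 9.05%, 7.25% and 7.71% in control and 7.94%, 10.5% and 9.79% in mutant libraries. Those values overlap, and the log2 ratio differed by 0.23 (exact two-sided permutation p 0.2). Whether reads of the wrong strand add to these counts was not tested.

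BC037039, the antisense transcript over Pcdhgc3, varied more between mutant libraries than between genotypes. Its counts were 68, 49 and 83 in control replicates 1 to 3 and 81, 28 and 30 in mutant replicates 1 to 3. The levels were 4.52, 3.59 and 5.60 CPM in controls and 6.48, 2.09 and 2.18 CPM in mutants. Mutant replicate 1 was the highest of all 6 libraries, and mutant replicates 2 and 3 were the lowest. The log2 fold change was -0.37 ± 0.32 (SE, 95% interval -1.06 to 0.31), with an edgeR adjusted p of 0.931. Leaving out mutant replicate 1 gave a call in the lower direction, with a log2 fold change of -1.10 (edgeR adjusted p 0.0317). Leaving out control replicate 3 gave -0.20 (edgeR adjusted p 0.977).

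The same library stood out among the protocadherins. Mutant replicate 1 had the highest CPM of the 3 mutant libraries in 21 of 22 tested gamma genes and in 43 of 56 tested clustered protocadherins, or 76.8%, against 37.8% of all genes tested. Pcdhgc3, on the strand opposite to BC037039, was at 155, 163 and 176 CPM in control and 141, 109 and 119 CPM in mutant libraries. It was lower in all mutant libraries, at -0.42 ± 0.09 (SE, edgeR adjusted p 0.0437), short of the 2-fold limit. BC037039 stood at 2.91%, 2.20% and 3.18% of Pcdhgc3 in control replicates 1 to 3 and at 4.6%, 1.92% and 1.84% in mutant replicates 1 to 3. Whether reads of the wrong strand from Pcdhgc3 add to the BC037039 counts was not tested. Against Pcdhgc3 and Pcdhgc4 together the log2 ratio differed by -0.07 between the genotypes (exact two-sided permutation p 0.9), less than the spread between mutant libraries.

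Among the protein-coding genes of the interval, Taf7 was slightly higher in every mutant brain without passing the threshold. Its counts were 180, 154 and 169 in control and 193, 237 and 192 in mutant replicates 1 to 3. The levels were 12, 11.3 and 11.4 CPM in controls and 15.4, 17.7 and 14.0 CPM in mutants. The lowest mutant lay above the highest control. In edgeR this was a log2 fold change of 0.44 ± 0.12 (SE), unadjusted p 0.00207 and adjusted p 0.169. Its 95% interval ran from a 1.14-fold to a 1.62-fold level, below the 2-fold limit. Without control replicate 3 the value was 0.43, with an edgeR adjusted p of 0.408. Relative to the sum of Pcdhb22 and Pcdhga1, on either side of it, Taf7 stood at 56.3%, 50% and 52.6% in control and 46.8%, 58.2% and 49.4% in mutant libraries, which overlap.

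The other subunits of TFIID were examined as a list of 18 symbols, of which 16 matched and 14 were tested. None of the 14 passed an adjusted p of 0.05 in edgeR, and the smallest was 0.804. Their log2 fold changes ran from -0.21 to 0.19, with 6 positive and 8 negative and a median of -0.06, against -0.01 for all genes tested. The value of Taf7 lay above that whole range. Taf8, which had the smallest adjusted p, was at -0.21 ± 0.11 (SE). Taf7l, the X-linked paralogue of Taf7, had 11 counts in all controls and 4 in all mutants and was not tested.

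Slc25a2 was near the limit of detection. It had 2, 4 and 2 counts in control and 3, 3 and 5 counts in mutant replicates 1 to 3, or between 0.133 and 0.293 CPM and between 0.224 and 0.364 CPM. The values overlapped. Scaled to library size, the 11 mutant counts were 1.51 times the 8 control counts, with an exact 95% counting interval of 0.553 to 4.32, and the exact two-sided permutation p of its CPM was 0.3. That interval includes no change as well as changes in either direction, and a change of the size seen for 3222401L13Rik lies outside it. The counting interval does not cover differences between brains.

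The ornithine and urea cycle genes gave no call either. Of the 13 genes of that list, 9 were tested, none passed an adjusted p of 0.05 in edgeR (smallest 0.912), and the log2 fold changes ran from -0.29 to 0.19 with a median of 0.02. The paralogous carrier Slc25a15 averaged 20.7 CPM over the 3 controls and 21.4 over the 3 mutants, with a log2 fold change of 0.05 ± 0.10 (SE, edgeR adjusted p 0.984). Ass1, the argininosuccinate synthase gene, had the smallest adjusted p, at -0.29 ± 0.21. Of the 6 genes of HUSH and its partners, 2 besides Mphosph8 passed an adjusted p of 0.05, both higher and short of the 2-fold limit, where 0.532% of all genes tested passed as higher without that limit. They were Fam208a, the TASOR subunit gene, at 0.77 ± 0.12 (edgeR adjusted p 0.00141), and Morc2a, at 0.45 ± 0.09 (edgeR adjusted p 0.0208), named after their values were seen.

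Per length, the order of the genes changed between the genotypes. In controls Taf7 was at 3.42 to 3.62 CPM per kb of exonic sequence, BC037039 at 1.63 to 2.54, Gm26672 at 0.567 to 0.605, 3222401L13Rik at 0.236 to 0.317 and Slc25a2 at 0.0971 to 0.214. No neighbours in that order overlapped. In mutants Taf7 was at 4.23 to 5.36 CPM per kb and 3222401L13Rik came next, at 3.71 to 4.23, so that these ranges met. BC037039, at 0.948 to 2.94 CPM per kb, and Gm26672, at 1.26 to 1.34, overlapped, and Slc25a2 remained lowest at 0.164 to 0.266. Among all genes tested, 3222401L13Rik moved from the 3.63 percentile of level per length in controls to the 46.0 percentile in mutants, and Gm26672 from 11.4 to 22.9.

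**Figure D3:**
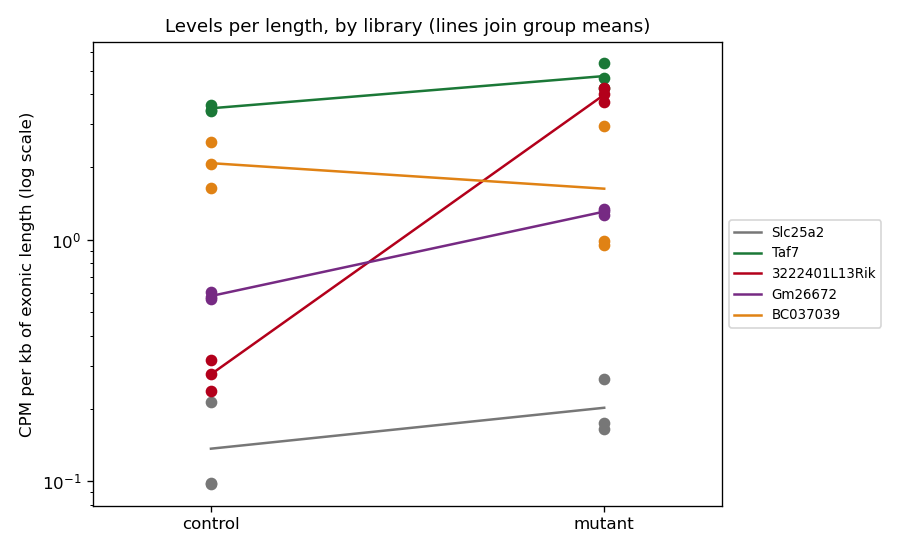
Level of each of the 5 genes in CPM per kb of exonic length (log scale) in control and Mphosph8 mutant libraries, with 1 point per library and lines joining the group means (n = 3). 3222401L13Rik climbs from a mean of 0.277 to 3.98, next below Taf7 at 4.75, while the mutant points of BC037039 spread on both sides of Gm26672.

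Genes elsewhere with the most similar course over the 6 libraries were listed for the called transcripts, as a description. Since the libraries fall into 2 genotypes, any gene that differs between them is alike by this measure. For 3222401L13Rik the highest Pearson r of log2 CPM were those of Zfp990 (0.9940), 4933412O06Rik (0.9937) and Gm5124 (0.9929). Zfp990, a zinc finger gene, had 0 counts in every control and 20, 17 and 28 in the mutants. For Gm26672 they were Zfp990 (0.9963), Gm13136 (0.9914) and Psg16 (0.9906). Of these, 4933412O06Rik at a log2 fold change of 0.79 and Psg16 at 0.41 were not past the threshold (edgeR adjusted p 0.384 and 0.529), and nothing on shared control follows from the list.

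**Figure D4:**
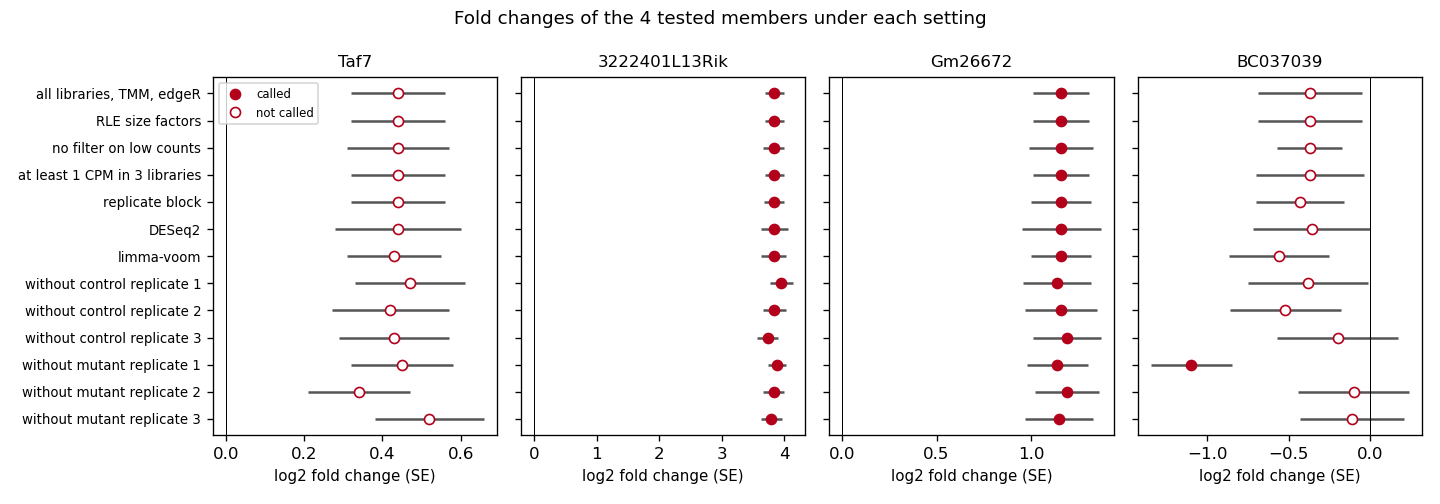
edgeR, DESeq2 or limma-voom log2 fold change (horizontal axis, bars SE, ranges differ between panels) of the 4 tested genes under each setting named at the left, with filled points for calls at an adjusted p under 0.05 and a fold change over 2. 3222401L13Rik and Gm26672 are filled throughout and Taf7 is open throughout, while BC037039 is filled only without mutant replicate 1, at -1.10.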

How the data were processed

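PolyA-selected libraries, 1 per brain, were sequenced as single reads of 50 bases. Per the labels and the study's methods, the authors trimmed reads with Trim Galore 0.5.0, removed ribosomal, mitochondrial, phiX and adapter reads with Bowtie2 2.3.4.1, aligned the rest with STAR to GRCm38 (Ensembl release 94) and counted reads per gene with featureCounts (Subread 1.6.2). What was deposited is the whole-number read count of each gene, without normalisation. Whether strand was used in counting is not given in the sources used here. Symbols, positions and exons come from GENCODE M21 (GRCm38), which matched 54495 of 54532 identifiers.

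Counts were fitted with edgeR 4.0.16 (R 4.3.3): filterByExpr, TMM, quasi-likelihood F test, genotype as the only term, Benjamini-Hochberg adjustment over the 16731 genes tested. Called means an adjusted p under 0.05 and a fold change over 2. SE and 95% intervals of fold changes derive from the F statistic. CPM use the effective library size. Ratios to neighbouring protocadherins were compared by exact permutation of libraries. Neighbours are the tested protocadherins whose leftmost base is nearest to the middle of the gene on each side. The model step was tested on simulated data.

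The genes and lists were chosen with earlier results of these data known. Named are the 5 genes, Mphosph8, neighbours and genes opposite them, the smallest adjusted p of the TFIID and urea cycle lists, Taf7l, Slc25a15, and the 3 genes with the highest r for each called gene. Pcdhgc3 and Pcdhgc4 are neighbours of BC037039. The groups share replicate numbers, which did not pair the libraries, and the fit has no block.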

Additional observations from a re-analysis of the deposited data

How the results depend on the processing

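Each of the 4 log2 fold changes was recomputed under 12 alternatives: RLE size factors, DESeq2 1.42.0, limma-voom (limma 3.58.1), every gene kept whatever its count, a minimum of 1 CPM in 3 libraries, the replicate number as a block, and each library left out. In all of them 2 of the 5 genes were called higher, as also with a 1.5-fold limit or none, and 3222401L13Rik stayed between 3.73 and 3.95 and Gm26672 between 1.14 and 1.19. Taf7 stayed between 0.34 and 0.52, with adjusted p from 0.111 to 0.543. BC037039 ranged from -1.10 to -0.10 without 1 library, with adjusted p from 0.0317 to 1 over its alternatives, and the lowest value came without mutant replicate 1, which made the number of the 5 genes called lower 1 in place of 0. Log2 ratios to neighbouring protocadherins ran, without 1 library, from -0.14 to 0.02 for Taf7, -0.50 to 0.16 for BC037039, 0.64 to 0.80 for Gm26672 and 3.26 to 3.49 for 3222401L13Rik. Taf7 changed sign without mutant replicate 1 and BC037039 without control replicate 3, mutant replicate 2 or mutant replicate 3. Against the 4 protocadherins opposite to it, chosen after seeing the data, the Gm26672 ratio was 0.23. For Slc25a2 the log2 ratio of 0.59 ran from 0.33 to 1.05 without 1 library. The causes were not tested.

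Same-numbered libraries had correlations of deviations of 0.10, -0.05 and 0.08. With the replicate block 2 of the 5 genes were called higher and 0 lower, and the log2 fold changes of Taf7, 3222401L13Rik, Gm26672 and BC037039 were 0.44, 3.83, 1.16 and -0.43. Over all genes, 59 were called higher and 1 lower, against 85 and 11 with no filter on low counts. The number called lower was 2 with the block or DESeq2 and ran from 0 to 5 without 1 library, with 0 without mutant replicate 2 or mutant replicate 3 and 5 without mutant replicate 1. With 8 and 11 counts, Slc25a2 is limited by depth.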

Other observations

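GENCODE M21 places 22 further genes wholly inside the region that are neither protocadherins nor among the 5 described above, mostly antisense RNAs and pseudogenes. None had enough counts to be tested, and 4 had 0 counts in every library. Together they held 79 counts in all controls and 144 in all mutants. The gene with the most, the antisense RNA Gm37446 of the beta array, had 13 and 32, and the pseudogene Gm20162, within its span on the other strand, had 5 and 21. Between Taf7 and 3222401L13Rik lies the pseudogene Gm8242, with 2 and 2 counts, and opposite the first exon of Pcdhga1 lies Gm37118, with 0 and 4. The genes were named here after their values were seen, and no difference between genotypes was tested for them.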
